A study of Saccharomyces cerevisiae with 10 samples.

Results

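Glycerol synthesis, transport and breakdown were described in 10 genes of the budding yeast Saccharomyces cerevisiae, taken by their symbols from a table of 6059 genes, and all 10 passed the filter on low counts. The groups were Z100 after 1 h of heat shock at 50 °C (n = 3), Z100 at 30 °C (n = 3), XH7 after the same heat shock (n = 2) and XH7 at 30 °C (n = 2). Z100 is an evolved strain, named adaptive in the labels, and XH7 is the strain it was set against. The labels name no alleles for either. The protocol text speaks of an ice-water mixture for cultures without heat shock, so the state of the cells labelled 30 °C just before harvest is not certain. Nothing in the labels ties replicates to separate cultures, so p-values cover only the spread among libraries of a group, possibly of technical origin.

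Poly(A)-selected RNA was sequenced without strand information to 51901045 to 81442848 counts per library. Levels are CPM, in which the trimmed mean of M-values (TMM) puts the counts of all libraries on 1 scale, and comparisons are given as log2 fold changes ± SE from edgeR's quasi-likelihood test, called at a Benjamini-Hochberg adjusted p under 0.05 over 6015 tested genes. The TMM factors lay between 0.678 and 1.016 in heated libraries and between 1.075 and 1.375 in unheated ones. With this scaling a change with heat is relative to the average gene. Neither the counts nor the factors measure cell number or RNA per cell, so fewer cells and less RNA per cell cannot be told apart. Over genes, the median SD of log2 CPM was 0.236 in heated and 0.16 in unheated Z100, and 0.291 in heated and 0.084 in unheated XH7. As a check of the labels, the heat shock genes HSP104, SSA4 and HSP26 were called higher at 50 °C in both strains.

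Yeast makes glycerol from dihydroxyacetone phosphate, an intermediate of glycolysis. Glycerol-3-phosphate dehydrogenase (Gpd1 and Gpd2) reduces it with NADH, and glycerol-3-phosphatase (Gpp1 and Gpp2) removes the phosphate. Glycerol holds water in cells under osmotic stress and takes up excess NADH when oxygen is short, the role for which Gpd2 is best known, while Gpd1 and Gpp2 are classic targets of the high osmolarity glycerol (HOG) pathway. Stl1 imports glycerol with protons and Fps1 is a channel that lets it out. Breakdown runs through glycerol kinase (Gut1) back to glycerol 3-phosphate, or through a glycerol dehydrogenase (Gcy1) and the dihydroxyacetone kinases (Dak1 and Dak2).

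The upstream sequences of GPD1, GPP2 and GCY1 are shown because GPD1 and GPP2 rose most of the synthesis genes and GCY1 most of the breakdown genes in XH7 or Z100. They run from 400 to 101 bases before the start codon, 5′ to 3′ on the gene's strand, and were read from the R64 genome, the assembly whose positions the deposited table gives. The windows are chrIV:411425-411724 (plus strand) for GPD1, chrV:280783-281082 (minus) for GPP2 and chrXV:550714-551013 (plus) for GCY1. Capitals mark matches, on either strand, to AGGGG (the stress response element bound by Msn2 and Msn4), GAANNTTC or TTCNNGAA (paired units of the heat shock element), GGGACAAA (the Hot1 motif) or CATGTG (the core of the inositol-choline element).
GPD1: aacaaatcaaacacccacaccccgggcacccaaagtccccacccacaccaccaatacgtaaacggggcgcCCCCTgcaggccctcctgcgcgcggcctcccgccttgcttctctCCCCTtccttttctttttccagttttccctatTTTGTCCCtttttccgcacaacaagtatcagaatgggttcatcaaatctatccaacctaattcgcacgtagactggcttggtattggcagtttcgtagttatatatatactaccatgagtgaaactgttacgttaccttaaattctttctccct
GPP2: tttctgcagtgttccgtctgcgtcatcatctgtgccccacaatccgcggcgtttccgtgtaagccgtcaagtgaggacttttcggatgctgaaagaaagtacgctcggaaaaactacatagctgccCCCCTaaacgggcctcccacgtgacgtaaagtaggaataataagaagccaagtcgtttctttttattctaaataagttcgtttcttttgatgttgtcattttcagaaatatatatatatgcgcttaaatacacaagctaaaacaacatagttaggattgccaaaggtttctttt
GCY1: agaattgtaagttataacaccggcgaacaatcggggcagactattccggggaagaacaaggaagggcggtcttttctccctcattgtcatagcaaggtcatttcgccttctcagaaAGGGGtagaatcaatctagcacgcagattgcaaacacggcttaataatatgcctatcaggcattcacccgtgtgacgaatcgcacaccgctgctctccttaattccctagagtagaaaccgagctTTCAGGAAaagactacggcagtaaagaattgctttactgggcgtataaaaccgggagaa

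In these windows GPD1 held AGGGG at 2 places, in the opposite-strand form CCCCT, and the Hot1 motif once, 254 to 247 bases before the start codon. GPD2 and GPP2 held AGGGG once each. GCY1 held AGGGG once and a heat shock pair, TTCAGGAA, 159 to 152 bases before the start codon. None of the letters searched were found for FPS1 or DAK1. STL1 also had the Hot1 motif, overlapping an AGGGG match by 3 bases, GUT1 had AGGGG and CATGTG, and DAK2 had AGGGG and a heat shock pair at 2 places. The upstream gene GOS1 lies 306 bases from GUT1. The CATGTG match, 316 to 311 bases before the GUT1 start codon, is thus within GOS1. Among 6001 windows of the same length, AGGGG was found in 23.5%, a heat shock pair in 23.6%, CATGTG in 9.27% and the Hot1 motif in 0.733%. Matches of this kind describe the letters and not binding.

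**Figure D1:**
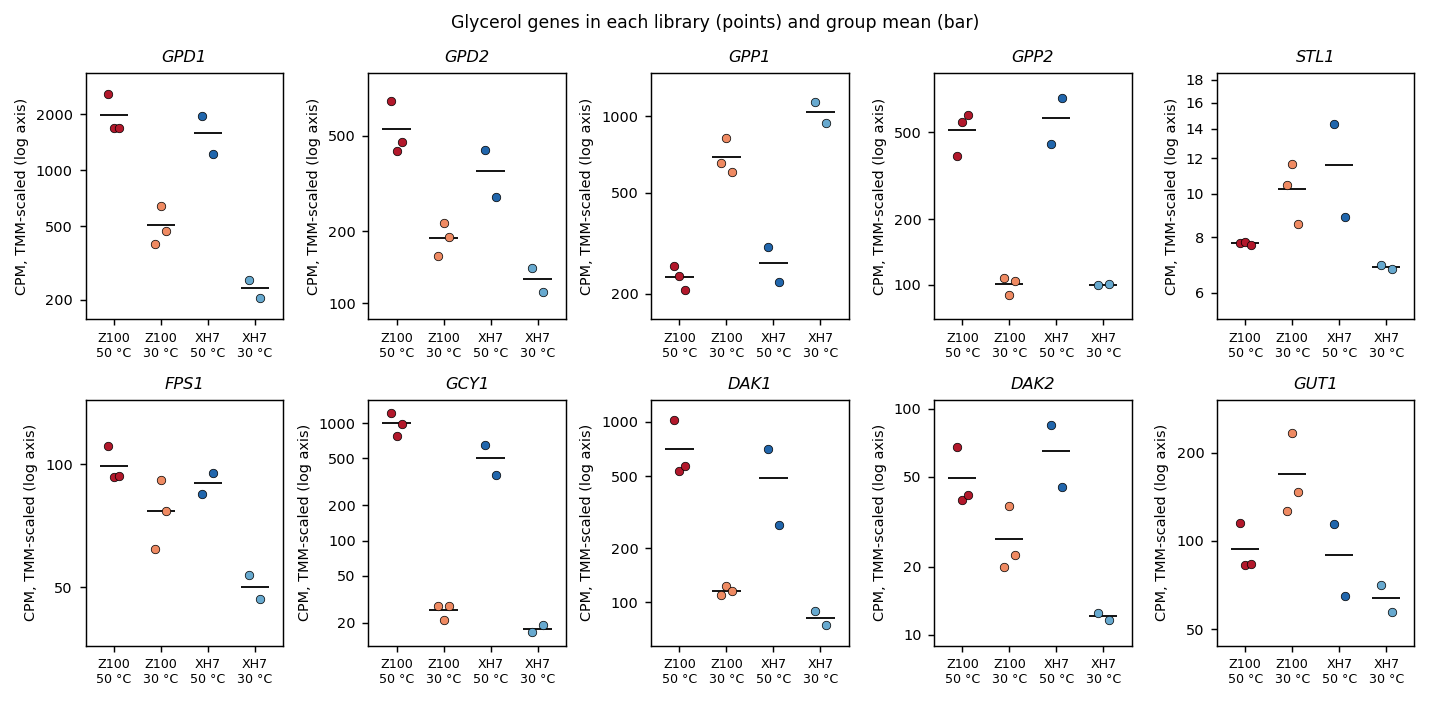
TMM-scaled CPM (log axis, a separate range in each panel) of the 10 glycerol genes in each library, with points for libraries and bars for group means. GPD1, GPD2, GPP2, GCY1, DAK1 and DAK2 lay higher at 50 °C than at 30 °C in every library of both strains, and GPP1 lay lower.

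After heat shock both strains had more messenger RNA for the first step of glycerol synthesis, GPP2 in place of GPP1 as the larger phosphatase transcript, and more messenger RNA for the dihydroxyacetone route of breakdown. In Z100, 6 of the 10 genes rose (GPD1, GPD2, GPP2, GCY1, DAK1 and DAK2) and 2 fell (GPP1 and GUT1). In XH7, 8 rose, namely the same 6 with STL1 and FPS1, and 1 fell (GPP1). Over all tested genes 69.9% were called in Z100, 33.8% higher and 36.2% lower, and 63.3% in XH7, 31.3% higher and 32% lower. The median log2 fold change of the 10 genes was 1.21 in Z100 and 1.97 in XH7, beside -0.05 and 0.01 over all genes. With upper-quartile scaling the split in Z100 was 6 higher and 3 lower, and with library size only it was 5 and 3. These scalings moved the median of all genes by -0.18 and -0.63 in Z100 and by -0.13 and -0.55 in XH7.

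**Figure D2:**
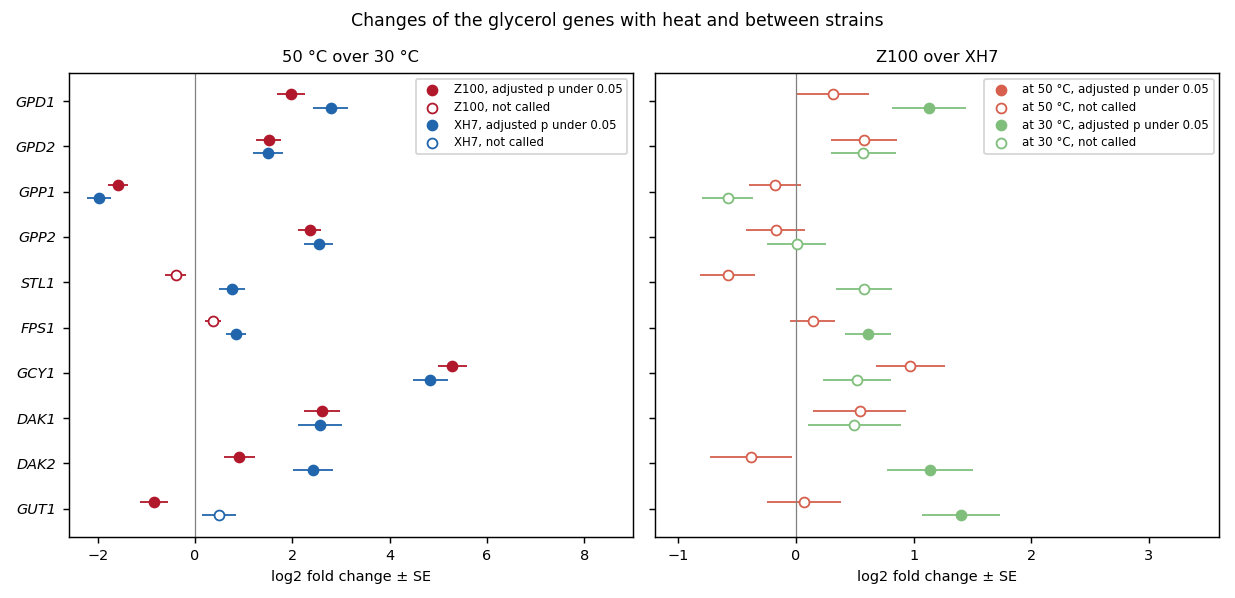
Log2 fold changes ± SE (horizontal axes) of the 10 genes for 50 °C over 30 °C in each strain, left, and for Z100 over XH7 at each temperature, right. Filled points had an adjusted p under 0.05 in edgeR's quasi-likelihood test. GCY1 stands at 5.29 in Z100 and 4.83 in XH7, and GPP1 at -1.58 and -1.98.

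GPD1 (YDL022W, chromosome IV 411825 to 413000), the dehydrogenase gene of the osmotic response, had 2566, 1689 and 1689 CPM in Z100 at 50 °C, against 402, 644 and 472 CPM in Z100 at 30 °C. In XH7 it had 1959 and 1222 CPM at 50 °C, against 257 and 204 CPM at 30 °C. Every heated library lay above every unheated one in both strains, and the unheated Z100 libraries all lay above the unheated XH7 ones. The change was 1.97 ± 0.28 in Z100 (adjusted p = 0.000115, edgeR) and 2.79 ± 0.35 in XH7 (adjusted p = 8.04e-05, edgeR). GPD2 (YOL059W, chromosome XV 217126 to 218448), the redox-linked isozyme, ranged over 434 to 702 CPM in Z100 at 50 °C, against 158 to 216 CPM at 30 °C, and over 279 to 437 CPM in XH7 at 50 °C, against 112 to 141 CPM at 30 °C. It rose by 1.51 ± 0.25 in Z100 and 1.50 ± 0.31 in XH7.

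Transcripts of the phosphatase genes moved in opposite directions. GPP1 (YIL053W, chromosome IX 255115 to 255867), the more abundant form in unheated cells, had 257, 234 and 206 CPM in Z100 at 50 °C, against 657, 823 and 603 CPM at 30 °C. XH7 had 305 and 222 CPM at 50 °C, against 1137 and 939 CPM at 30 °C. All heated libraries were below all unheated ones, with changes of -1.58 ± 0.20 in Z100 and -1.98 ± 0.25 in XH7. GPP2 (YER062C, chromosome V 279930 to 280682), the osmotically induced form, had 389, 557 and 602 CPM in Z100 at 50 °C, against 107, 90.1 and 104 CPM at 30 °C. XH7 had 443 and 719 CPM of it at 50 °C, against 99.4 and 101 CPM at 30 °C. Here the heated libraries were all above the unheated ones, and the change was 2.36 ± 0.24 in Z100 and 2.54 ± 0.29 in XH7. The coding sequences of GPP1 and GPP2 have 753 bases each and are identical at 82.7% of positions, with a longest shared run of 26 bases. Whether the authors' counting split any reads between them was not tested.

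The isozyme make-up was compared per length, as shares of FPKM, the deposited counts scaled to gene length and library total. Of the GPP1 and GPP2 total, GPP1 held 39.8%, 29.6% and 25.5% in Z100 at 50 °C, against 85.9%, 90.1% and 85.3% at 30 °C. The XH7 libraries had 40.8% and 23.6% at 50 °C, against 92.0% and 90.3% at 30 °C. GPP1 was thus the larger of the pair in all 5 unheated libraries and the smaller in all 5 heated ones. Averaged over strains, the share was 57.2 percentage points lower at 50 °C (exact permutation test within strains, two-sided, p = 0.0167, the smallest its 120 arrangements give, and 0.0333 adjusted over 6 tests of shares). Summed over both phosphatase genes, levels were 645, 791 and 808 CPM in Z100 at 50 °C, against 765, 913 and 707 CPM at 30 °C, and 748 and 941 CPM in XH7 at 50 °C, against 1237 and 1040 CPM at 30 °C. The groups overlapped in Z100 and did not in XH7, and the sums were not tested.

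The GPD1 share moved less and differently by strain. It held 80.4%, 81.4% and 80.2% of the GPD1 and GPD2 total in Z100 at 50 °C, against 74.1%, 77.0% and 73.7% at 30 °C. In XH7 the values were 83.5% and 83.1% at 50 °C, against 67.2% and 67.3% at 30 °C. All heated libraries lay above all unheated ones, by a mean of 10.9 percentage points (exact permutation test within strains, two-sided, p = 0.0167, adjusted p = 0.0333). Z100 was 7.68 points above XH7 at 30 °C and 2.62 points below it at 50 °C, counted as -2.62. That difference between temperatures, 10.3 points, had p = 0.01 in an exact permutation of strain labels within temperature, the smallest of 100 arrangements, and an adjusted p of 0.0333. The comparison was chosen after the values were seen. Its test permutes both temperatures together, so it is of no strain difference at either and cannot single out unequal differences. Averaged over temperatures, the strains differed by 2.53 points in the GPD1 share (exact permutation test, p = 0.25, adjusted p = 0.375) and by -2.28 points in the GPP1 share (exact permutation test, p = 0.57, adjusted p = 0.62).

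**Figure D3:**
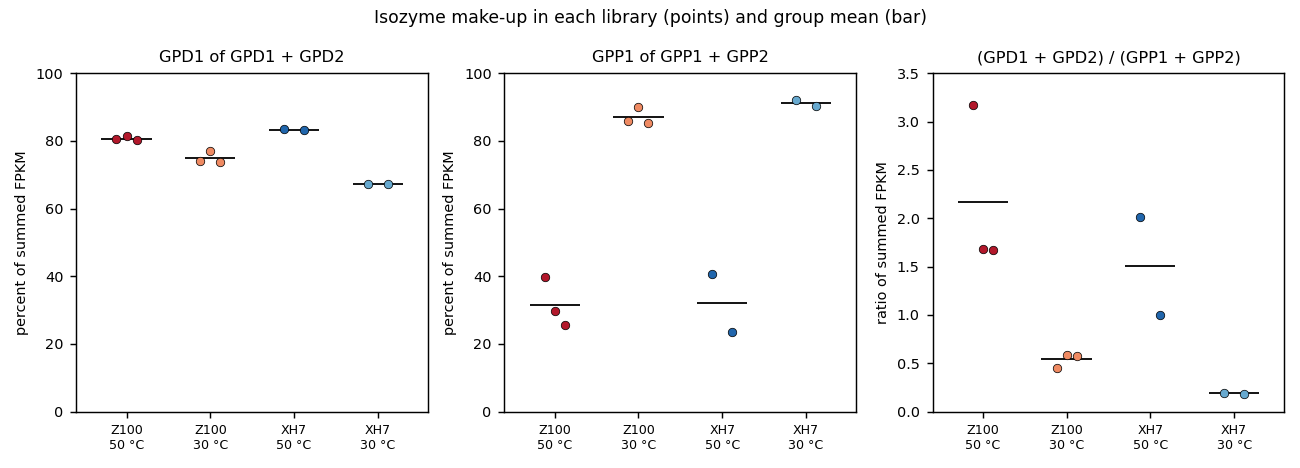
Share of GPD1 in the GPD1 and GPD2 total and of GPP1 in the GPP1 and GPP2 total (percent of summed FPKM), and the ratio of the dehydrogenase total to the phosphatase total, with points for libraries and bars for group means. The GPP1 share stood at 23.6% to 40.8% in heated libraries and at 85.3% to 92.0% in unheated ones, and the ratio was 1.00 or higher at 50 °C and under 1 at 30 °C.

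Set against each other per length, the dehydrogenase genes together had 3.17, 1.68 and 1.67 times the phosphatase genes' FPKM in Z100 at 50 °C, against 0.455, 0.586 and 0.580 times at 30 °C. In XH7 the ratio was 2.01 and 1.00 at 50 °C, against 0.198 and 0.187 at 30 °C. Within each strain the heated and unheated libraries did not overlap, and at 30 °C every Z100 library lay above both XH7 libraries. The ratio was not tested.

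The carrier genes STL1 and FPS1 were called higher with heat in XH7 and were not called in Z100. The difference between the strains' responses was called for neither by edgeR. For FPS1 it was -0.47 ± 0.27 (adjusted p = 0.306, edgeR). STL1 (YDR536W, chromosome IV 1508005 to 1509714), the glycerol importer, was low throughout and had 7.76, 7.81 and 7.69 CPM in Z100 at 50 °C, against 10.5, 11.7 and 8.56 CPM at 30 °C. XH7 had 14.3 and 8.88 CPM at 50 °C, against 6.92 and 6.80 CPM at 30 °C. Heated libraries were thus below unheated ones in Z100 and above them in XH7. STL1 rose in XH7 by 0.76 ± 0.26 (adjusted p = 0.0269, edgeR), while the value in Z100 was -0.40 ± 0.21 (adjusted p = 0.116, edgeR). With library size only the Z100 value was -1.02 (adjusted p = 0.00109, edgeR) and the XH7 value 0.16 (adjusted p = 0.575, edgeR), and the XH7 call also ended without either XH7 library at 30 °C or without replicate 1 at 50 °C (adjusted p up to 0.25, edgeR). The difference between the strains' responses was -1.16 ± 0.34 (adjusted p = 0.078, edgeR).

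FPS1 (YLL043W, chromosome XII 49938 to 51947), the glycerol channel, had 111, 93.1 and 93.3 CPM in Z100 at 50 °C, against 61.8, 91.5 and 76.7 CPM at 30 °C. XH7 had 84.4 and 95.3 CPM at 50 °C, against 53.6 and 46.8 CPM at 30 °C. The heated groups lay at similar levels, and the unheated XH7 libraries were the lowest of all. FPS1 rose in XH7 by 0.84 ± 0.21 (adjusted p = 0.00538, edgeR) and stood at 0.37 ± 0.17 in Z100 (adjusted p = 0.0752, edgeR), where library size alone gave -0.26 (adjusted p = 0.212, edgeR). The Z100 value was called higher with DESeq2 (0.42, adjusted p = 0.0429), without Z100 replicate 2 at 30 °C (0.52, adjusted p = 0.0245, edgeR) and without XH7 replicate 2 at 50 °C (0.41, adjusted p = 0.0479, edgeR). In XH7 library size alone gave 0.31 (adjusted p = 0.237, edgeR), and the call ended without XH7 replicate 2 at 30 °C (adjusted p = 0.052, edgeR).

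Of the breakdown genes, GCY1 (YOR120W, chromosome XV 551114 to 552052), which encodes the glycerol dehydrogenase, had the largest change of the 10. It had 1221, 769 and 991 CPM in Z100 at 50 °C, against 27.9, 20.9 and 27.5 CPM at 30 °C. In XH7 it had 650 and 363 CPM at 50 °C, against 16.5 and 19.0 CPM at 30 °C. No library of a heated group came near an unheated one, and the log2 fold change was 5.29 ± 0.30 in Z100 (adjusted p = 3.31e-07, edgeR) and 4.83 ± 0.37 in XH7 (adjusted p = 3.92e-06, edgeR). By size of rise, GCY1 stood at place 69 of 6015 genes in Z100 and at place 96 in XH7.

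DAK1 (YML070W, chromosome XIII 133475 to 135229), the more abundant dihydroxyacetone kinase gene, had 1023, 538 and 568 CPM in Z100 at 50 °C, against 109, 123 and 115 CPM at 30 °C. XH7 had 708 and 267 CPM at 50 °C, against 89.4 and 74.8 CPM at 30 °C. Both heated groups lay above their unheated ones, with a wide spread in XH7, and the changes were 2.62 ± 0.37 in Z100 and 2.57 ± 0.45 in XH7. DAK2 (YFL053W, chromosome VI 23423 to 25198), its paralog with 59.9% of aligned bases identical, had 68.0, 39.5 and 41.5 CPM in Z100 at 50 °C, against 19.9, 37.3 and 22.4 CPM at 30 °C. In XH7 the values were 84.6 and 45.2 CPM at 50 °C, against 12.5 and 11.6 CPM at 30 °C. The highest unheated Z100 library thus came close to the lowest heated one, and the XH7 groups were far apart. DAK2 rose by 0.90 ± 0.32 in Z100 (adjusted p = 0.0265, edgeR) and by 2.43 ± 0.41 in XH7 (adjusted p = 0.000468, edgeR). The Z100 call ended with library size only (0.27, adjusted p = 0.324, edgeR) and without Z100 replicate 1 or 3 at 30 °C or replicate 1 at 50 °C (adjusted p up to 0.106, edgeR).

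Upstream of DAK2, 635 bases away on the opposite strand, lies AQY3 (YFL054C), a channel-like gene related to FPS1. AQY3 averaged 186.8 ± 44.7 CPM in Z100 at 50 °C and 63.8 ± 14.0 CPM at 30 °C (SD, n = 3 each). In XH7 it averaged 185.1 ± 51.5 CPM at 50 °C and 27.7 ± 3.99 CPM at 30 °C (SD, n = 2 each). It rose by 1.55 ± 0.24 in Z100 and by 2.74 ± 0.31 in XH7, and DAK2 and AQY3 do not overlap.

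GUT1 (YHL032C, chromosome VIII 36379 to 38508), the glycerol kinase gene, was the only breakdown gene called lower with heat. It had 115, 82.7 and 83.3 CPM in Z100 at 50 °C, against 126, 234 and 146 CPM at 30 °C. XH7 had 114 and 64.6 CPM at 50 °C, against 70.5 and 57.0 CPM at 30 °C. In Z100 all heated libraries lay below the unheated ones, and in XH7 the groups overlapped. The changes were -0.85 ± 0.28 in Z100 (adjusted p = 0.0213, edgeR) and 0.49 ± 0.35 in XH7 (adjusted p = 0.239, edgeR, and -0.11 with library size only). The Z100 call ended without replicate 2 at 30 °C or replicate 2 or 3 at 50 °C (adjusted p up to 0.10, edgeR). GUT2, the mitochondrial dehydrogenase that takes over the glycerol 3-phosphate Gut1 makes, rose in both strains, by 1.46 ± 0.28 in Z100 and 2.48 ± 0.36 in XH7.

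Levels of different genes were set in order by mean FPKM ± SD, with their places among all 6059 genes. In heated Z100 cells GPD1 stood first at 1270 ± 182 FPKM (place 136), then GCY1 at 799 ± 99.6 (place 190), GPP2 at 533 ± 159, GPD2 at 304 ± 47.0, DAK1 at 302 ± 79.8 and GPP1 at 235 ± 23.5 FPKM. GPD2 and DAK1, and DAK1 and GPP1, were closer to each other than their spread. In unheated Z100 cells the order of FPKM was GPP1 at 1087 ± 96.1 (place 201), GPD1 at 505 ± 77.9, GPD2 at 168 ± 13.9, GPP2 at 160 ± 27.5, GUT1 at 92.4 ± 22.5 and DAK1 at 78.2 ± 2.74. There GPD2 and GPP2, and GUT1 and DAK1, lay within their spread of each other. GCY1, second in heated Z100 cells, was at 32.5 ± 7.50 FPKM (place 2998) in unheated ones.

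In XH7, GPD1 and GPP1 also led. In heated XH7 cells GPD1 had 1167 ± 158 FPKM (place 128), GPP2 711 ± 366, GCY1 462 ± 97.8, GPP1 305 ± 8.50, GPD2 234 ± 27.9 and DAK1 232 ± 110 FPKM. GPP2 and GCY1, GPD2 and DAK1, and GPP1 and DAK1 were not apart by more than their spread. In unheated XH7 cells GPP1 stood at 1789 ± 109 FPKM (place 154), GPD1 at 254 ± 22.4, GPP2 at 173 ± 14.4, GPD2 at 124 ± 11.3, DAK1 at 60.7 ± 3.12 and GUT1 at 38.8 ± 2.94 FPKM. STL1 was the lowest of the 10 in all 4 groups, at 3.48 ± 0.38 FPKM in heated and 7.08 ± 0.82 FPKM in unheated Z100, and 5.85 ± 0.82 FPKM in heated and 5.23 ± 0.33 FPKM in unheated XH7.

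Without heat shock, Z100 had more GPD1, FPS1, DAK2 and GUT1 messenger RNA than XH7. These 4 of the 10 genes were called higher and none lower, where 28.4% of all tested genes were called, 14.3% higher and 14.1% lower, and the median was 0.57 for the 10 genes and -0.08 for all genes. GUT1 led with 1.40 ± 0.33 (adjusted p = 0.0136, edgeR), from 126, 234 and 146 CPM in Z100 against 70.5 and 57.0 CPM in XH7. DAK2 followed at 1.14 ± 0.37 (adjusted p = 0.0432, edgeR), GPD1 at 1.13 ± 0.31 (adjusted p = 0.0255, edgeR) and FPS1 at 0.61 ± 0.19 (adjusted p = 0.0405, edgeR). For each of the 4 every Z100 library lay above both XH7 libraries. Library size alone gave 3 higher and 1 lower (GPP1).

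The other genes at 30 °C had values of 0.57 ± 0.28 for GPD2 (adjusted p = 0.146, edgeR), 0.58 ± 0.24 for STL1 (adjusted p = 0.0975, edgeR) and -0.58 ± 0.22 for GPP1 (adjusted p = 0.0719, edgeR). GPP2 was at 0.01 ± 0.25, GCY1 at 0.52 ± 0.29 and DAK1 at 0.50 ± 0.40. The count of 4 rested on few libraries. It was 1 without Z100 replicate 2 or 3 at 30 °C and 2 without Z100 replicate 3 at 50 °C. Fitting the unheated groups alone gave 9, of which 8 were higher. The share of all genes called also changed, from 28.4% to 52.8% with the unheated groups alone. It was 17.6% and 15.4% without Z100 replicate 2 and 3 at 30 °C, and 25.6% without Z100 replicate 3 at 50 °C. Leaving out either XH7 library at 30 °C left 1 in that group. There the 4 calls did not hold, and far fewer of all genes were called. Without XH7 replicate 1 and 2, in this order, GUT1 was at 1.56 and 1.26 and DAK2 at 1.19 and 1.09. GPD1 was at 1.31 and 0.98, and FPS1 at 0.71 and 0.52.

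After heat shock, none of the 10 genes was called by edgeR's quasi-likelihood test, where 8.96% of all genes were, 4.02% higher and 4.94% lower in Z100, and 2 had an unadjusted p under 0.05. The pair was GCY1, at 0.97 ± 0.29 (adjusted p = 0.066, edgeR), and STL1, at -0.58 ± 0.23 (adjusted p = 0.146, edgeR). All GCY1 values of Z100, 769 to 1221 CPM, lay above those of XH7, 363 and 650 CPM, and all STL1 values lay below. DESeq2 called 1 of the 10, GCY1, and limma-voom called 0, where they called 17.8% and 8.86% of all genes. GPD1 was at 0.32 ± 0.31 (adjusted p = 0.548, edgeR), GPD2 at 0.58 ± 0.28 (adjusted p = 0.219, edgeR) and DAK1 at 0.54 ± 0.40. The other 5 lay between -0.39 (DAK2) and 0.14 (FPS1).

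The difference of the heat responses, Z100 minus XH7, was called for 0 of the 10 genes by edgeR, where 4.27% of all genes were called, 1.63% higher and 2.64% lower. Of all genes, DESeq2 called 14%, limma on log2(FPKM + 1) 6.1% and limma-voom 5.27%. An unadjusted p under 0.05 was found for 3 genes, and DESeq2 and limma on log2(FPKM + 1) each called 3, while limma-voom called 0. They were DAK2 at -1.52 ± 0.50 (adjusted p = 0.105, edgeR), GUT1 at -1.34 ± 0.45 (adjusted p = 0.109, edgeR) and STL1 at -1.16 ± 0.34. Without XH7 replicate 2 at 50 °C the edgeR values were -1.955, -1.738 and -1.502, in this order. For these 3 the Z100 over XH7 value was 1.14, 1.40 and 0.58 at 30 °C, in the same order, and -0.39, 0.07 and -0.58 at 50 °C.

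Other genes of the pathway moved both ways. Among 13 further glycerol genes, which cover carriers, channel regulators and enzymes at its edges, 5 rose and 2 fell with heat in Z100, and 7 rose and 2 fell in XH7, with medians of 0.21 and 1.15. Over all genes 33.8% were called higher and 36.2% lower in Z100, and 31.3% and 32% in XH7, so the count of rises in Z100 was near that of all genes. NDE2, an external NADH dehydrogenase of mitochondria, rose by 3.29 ± 0.36 in Z100 and 3.55 ± 0.45 in XH7. RGC1, a regulator of Fps1, rose by 1.54 ± 0.17 and 1.29 ± 0.21. YIG1, whose product binds the phosphatases, fell by 2.88 ± 0.21 and 1.81 ± 0.24, and GUP2 fell by 0.91 ± 0.23 and 1.66 ± 0.29. The glycolytic isomerase gene TPI1, at the branch point, had -0.15 ± 0.19 in Z100 and -0.23 ± 0.23 in XH7. With library size only the falls were 5 in Z100 and 4 in XH7.

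**Figure D4:**
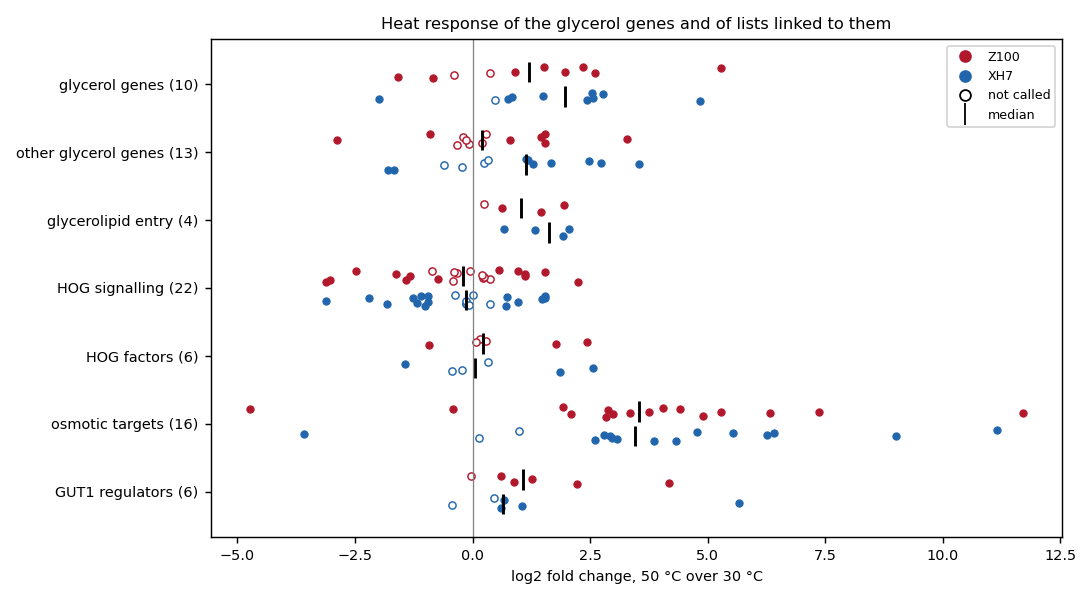
Log2 fold changes of 50 °C over 30 °C (horizontal axis) for the 10 glycerol genes and for the lists linked to them, with the number of genes in brackets, 1 point a gene, Z100 above XH7 in each row. Black bars are medians, which stand at 3.55 in Z100 and 3.46 in XH7 for the osmotic targets and near 0 for HOG signalling.

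Acyltransferase and reductase genes that carry glycerol 3-phosphate or dihydroxyacetone phosphate into lipids rose in 3 of 4 cases in Z100 and 4 of 4 in XH7. Over all genes 33.8% were called higher in Z100 and 31.3% in XH7, and the counts in this paragraph stand beside these shares. GPT2 was at 1.94 ± 0.27 in Z100 and 2.06 ± 0.33 in XH7, AYR1 at 1.46 ± 0.19 and 1.92 ± 0.23, and SCT1 at 0.62 ± 0.18 and 1.34 ± 0.23. Library size alone turned the SCT1 value in Z100 to -0.01. SLC1 was called in XH7 only, at 0.66 ± 0.22, with 0.25 ± 0.18 in Z100. Its XH7 call ended with library size only (0.093), limma on log2(FPKM + 1) (0.093) and the compared groups alone (0.659, adjusted p = 0.0589, edgeR). Of 6 regulators of GUT1 transcription, 5 rose in Z100 and 4 in XH7, and 2 and 2 with library size only. XH7 also had 2 without its replicate 2 at 30 °C. ADR1, an activator of glycerol use, rose by 4.19 ± 0.28 in Z100 and 5.66 ± 0.37 in XH7, while GUT1 itself fell in Z100 and was not called in XH7. INO2, which acts through the inositol-choline element, rose by 2.21 ± 0.20 in Z100 and 0.60 ± 0.23 in XH7, and its difference was 1.61 ± 0.30 (adjusted p = 0.0219, edgeR). The XH7 rise of INO2 (adjusted p = 0.041, edgeR) was not called with upper-quartile scaling (0.47), library size only (0.048) or limma on log2(FPKM + 1) (0.043), nor without either XH7 library at 30 °C, XH7 replicate 1 at 50 °C, Z100 replicate 1 at 30 °C or Z100 replicate 3 at 50 °C. The call of the difference ended without either XH7 library at 30 °C, without Z100 replicate 3 at 50 °C or with library size only.

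Genes of the HOG pathway moved in both directions. Of 22 signalling genes, 6 rose and 7 fell in Z100, and 6 rose and 9 fell in XH7, and with library size only 3 rose in each strain while 11 fell in Z100. These counts stand beside 33.8% of all genes called higher and 36.2% lower in Z100, and 31.3% and 32% in XH7, and nothing particular to the pathway is read from them. The MAP kinase gene HOG1 rose by 1.53 ± 0.14 in Z100 and 1.55 ± 0.17 in XH7, and its kinase gene PBS2 by 1.11 ± 0.19 and 0.97 ± 0.24. RCK2, a kinase that Hog1 activates, rose by 2.23 ± 0.16 and 1.48 ± 0.20. The mucin sensor gene MSB2 fell by 3.11 ± 0.25 and 1.81 ± 0.29, the phosphatase gene PTP3 by 3.04 ± 0.16 and 3.12 ± 0.20, and the kinase gene SSK22 by 2.48 ± 0.20 and 2.21 ± 0.24. Of 6 transcription regulators of the pathway 2 rose and 1 fell in each strain. SMP1 rose by 2.44 ± 0.25 and 2.55 ± 0.31 and MSN1 by 1.77 ± 0.14 and 1.86 ± 0.17, while HOT1, a factor known to act at GPD1 and STL1, fell by 0.92 ± 0.15 and 1.43 ± 0.19. Messenger RNA levels do not show kinase activity.

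Of 16 other osmotic target genes, 14 rose and 2 fell in Z100, and 13 rose and 1 fell in XH7, with medians of 3.55 and 3.46. Over all genes 33.8% were called higher and 36.2% lower in Z100, and 31.3% and 32% in XH7. HSP12 was at 11.71 ± 0.58 in Z100 and 11.16 ± 0.71 in XH7, RTC3 at 6.33 ± 0.25 and 9.01 ± 0.35, and ALD3 at 7.37 ± 0.47 and 6.42 ± 0.56. HXT1, a hexose transporter gene, fell in both strains, by 4.73 ± 0.39 in Z100 and 3.58 ± 0.45 in XH7. ENA1, a sodium pump gene, was the other of the falls in Z100, at -0.42 ± 0.16, a call lost in 11 of the alternatives tried. Several genes of the list, HSP12 and CTT1 among them, are also known targets of Msn2 and Msn4.

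Between strains at 30 °C, 7 of the 13 further glycerol genes were higher in Z100 and 1 was lower, led by GUT2 at 1.38 ± 0.32, NDE1 at 1.37 ± 0.17 and AQY3 at 1.20 ± 0.28, with GUP2 at -0.83 ± 0.25. Osmotic targets were higher in 7 of 16 cases, among them RTC3 at 3.25 ± 0.26 and CTT1 at 3.22 ± 0.28. In the lipid entry list 2 of 4 were higher, SCT1 at 1.06 ± 0.21 and AYR1 at 0.82 ± 0.21. HOG signalling genes were lower in 3 of 22 cases, the regulators in 1 of 6 (HOT1, -0.69 ± 0.17), and the GUT1 regulators held 1 higher (ADR1, 1.31 ± 0.29) and 1 lower (INO2, -1.13 ± 0.21). Over all genes 14.3% were called higher and 14.1% lower, and the counts of lower HOG genes were near that share. Without XH7 replicate 1 or 2 at 30 °C, which leaves 1 library in that group, most calls of the glycerol genes and osmotic targets were lost. Far fewer of all genes were called there too. GUT2 was then at 1.52 and 1.26, in this order, and AQY3 at 1.36 and 1.06. The calls in the other 4 lists did not hold without replicate 2 either, and nothing particular to the lists is read from these losses.

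At 50 °C, where 8.96% of all genes were called, 4.02% higher and 4.94% lower in Z100, the calls among these lists were as follows. NDE1 was the 1 of 13 glycerol genes called, at 0.70 ± 0.16, and osmotic targets were higher in 5 of 16 cases, led by HSP12 at 2.67 ± 0.46. HOG signalling had 1 higher (RCK2, 0.87 ± 0.18) and 3 lower, of which MSB2 was at -1.45 ± 0.25. In the difference of heat responses the calls were AQY2, a water channel gene, at -1.37 ± 0.27, INO2, and the osmotic targets RTC3 at -2.68 ± 0.33 and AHP1 at -1.80 ± 0.36. The NDE1 call at 50 °C was lost in 7 of the 10 fits that left out 1 library, the AQY2 and AHP1 calls of differences in 6 each and that of RTC3 in 1. The 5 osmotic targets at 50 °C were 2 or 3 in 8 of these fits. With the heated groups fitted alone, none of the calls at 50 °C in these lists was left. That fit called only 0.0668% of all genes, in place of 8.96%, so the loss is not particular to these lists. Adjusted p there was 0.0625 for HSP12, 0.115 for MSB2, 0.169 for RCK2 and 0.206 for NDE1 (edgeR). The RCK2 call was also lost with the replicate number as a block (adjusted p = 0.0554, edgeR) and without Z100 replicate 3 at 50 °C or either XH7 library at 30 °C.

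Genes whose levels ran closest to a glycerol gene were found by the root mean square difference of centred log2 CPM over the 10 libraries, among 4667 genes. For GPD1 they were GUD1 (0.17), KRE1 (0.17) and RDL1 (0.17), and for GPP1 DIS3 (0.21), KCS1 (0.22) and HIR3 (0.22). For STL1 they were MED7 (0.14), ATG18 (0.15) and SPF1 (0.15), and for DAK1 LSB1 (0.18), MTQ1 (0.20) and MSE1 (0.20). GUT1 ran with MSS51 (0.11), FMP52 (0.15) and OXA1 (0.16). STL1 averaged under 10 CPM, so it was not among the genes compared and could not be found as a neighbour. None of the other glycerol genes was among the 3 nearest of these 5, and the same libraries are behind all these values.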

How the data were processed

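Messenger RNA of 10 yeast libraries was measured by RNA sequencing; per the labels' protocols, RNA was isolated with TRIzol, selected by poly(A) and made into libraries with the NEBNext Ultra kit for an Illumina NovaSeq run. The authors deposited raw counts per gene, 51901045 to 81442848 per library, and FPKM values, counts scaled to gene length and library total, which were used for levels between genes and isozyme shares. The aligner and counter are not stated. Libraries were grouped by the strain and condition in the labels. Counts of 6015 of 6059 genes passed filterByExpr (minimum count 10) and were fitted with edgeR 4.0.16 (R 4.3.3, TMM scaling, 4 group means, 1 spread per gene over all groups, dispersion given as a biological coefficient of variation of 0.238, 6 residual degrees of freedom), with Benjamini-Hochberg adjustment over all genes and a threshold of 0.05. The 3 empty gene lines of the deposited counts are not analysed here. The SE is the log2 fold change over the square root of F. Isozyme shares were compared by exact permutation within strata, 6 tests in all. Upstream windows of 300 bases came from the R64 genome; all 10 genes had the same position there as in the deposited table. Alternatives were DESeq2 1.42.0, limma-voom and limma on log2(FPKM + 1) with limma 3.58.1, RLE, upper-quartile and library-size-only scaling, no filter, a filter of at least 5 CPM, a fit of the compared groups only, a block for the replicate number, other measures of the shares, and leaving out each library. A group left with 1 library took its spread from the others. The edgeR fit was tested on simulated counts with the same spread in all groups, unlike these data, and the other steps were not tested in this way. Counting error is small at these depths, so the number of libraries limits the precision. Python 3.11.15, pandas 2.3.3, numpy 2.4.6, scipy 1.17.1, matplotlib 3.10.9 and Biopython 1.88 were used.

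The 10 genes and the lists beside them (13 further glycerol genes, 4 of lipid entry, 22 of HOG signalling, 6 HOG regulators, 16 osmotic targets and 6 regulators of GUT1) were chosen with earlier results of these data known. Named from the lists were up to 3 called genes by size in each direction and comparison, the heat shock genes HSP104, SSA4 and HSP26, and the 3 genes most like each of GPD1, GPP1, STL1, DAK1 and GUT1 with at least 10 CPM on average (0.01 CPM was added before log2). PBS2, SLC1 and TPI1 fall outside this rule and were chosen after their values were seen. The comparison of the isozyme shares between temperatures and its alternatives were also added after the values were seen.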

Additional observations from a re-analysis of the deposited data

Results flagged for a closer look

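The GPD1 share of the GPD1 and GPD2 total (percent of summed FPKM) was picked out because the difference between the strains was not the same at both temperatures. It was 7.68 percentage points higher in Z100 at 30 °C and -2.62 points, that is lower in Z100, at 50 °C, a difference of 10.3 points. An exact permutation of strain labels within temperature gave p = 0.01, the smallest of its 100 arrangements, and an adjusted p of 0.0333 over 6 tests. The comparison was chosen after the values were seen. Because labels were permuted at both temperatures, the test is of no strain difference at either and cannot single out unequal differences. In edgeR the difference of responses was -0.82 for GPD1 (adjusted p = 0.272) and 0.01 for GPD2 (adjusted p = 0.995). Leaving out each library in turn gave 9.25 to 10.9 points. All 3 Z100 libraries lay above both XH7 libraries at 30 °C and below both at 50 °C. With this order no other arrangement gives a larger difference in the same direction. No cause was tested.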

How the results depend on the processing

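The counts of glycerol genes called with heat stayed within 1.5 times under every alternative run, at 7 to 10 in XH7 and 7 to 9 in Z100. Between strains at 30 °C the count of 4 was 9 with the compared groups alone and 0 to 6 when 1 library was left out. At 50 °C the count of 0 was 1 with DESeq2 and 0 to 1 with 1 Z100 library left out, where 2.43% to 9.11% of all genes were called. For the difference of heat responses the count of 0 was 3 with DESeq2, 2 with library size only and 3 with limma on log2(FPKM + 1). It stayed at 0 with any 1 Z100 library left out, where 0.948% to 7.18% of all genes were called. Without XH7 replicate 2 at 50 °C, which leaves 1 library in that group, more of the 10 and more of all genes were called. Among all genes, the compared groups alone called 52.8% at 30 °C. DESeq2 called 17.8% of all genes at 50 °C and 14% for the difference, where library size only called 5.62% and limma on log2(FPKM + 1) 6.1%. Of 990 single values of the 10 genes under the alternatives, 885 kept their direction and side of the threshold, 38 lost a call, 32 gained one and 35, none of them called in the main comparison, changed sign. The cause was not tested. With library size only and with limma on FPKM, in this order, GUT1 with heat in XH7 was -0.11 and -0.12, FPS1 with heat in Z100 -0.26 and -0.25, FPS1 at 50 °C -0.10 and -0.07, GUT1 at 50 °C -0.11 and -0.10, GPP2 at 30 °C -0.12 and -0.13, and the GPD2 difference of responses -0.055 and -0.061. Upper-quartile scaling gave -0.011 for GPP2 at 30 °C, -0.012 for GUT1 at 50 °C, -0.052 for the GPD2 difference and -0.02 for the DAK1 difference; limma-voom gave GPP2 at 30 °C as -0.00. Leaving out each library gave ranges across 0 for GPP2 at 30 °C (-0.045 to 0.08), for GPP1 (-0.357 to 0.067), GPP2 (-0.48 to 0.26), DAK2 (-0.74 to 0.14) and GUT1 (-0.26 to 0.54) at 50 °C, and for the differences of GPD2 (-0.33 to 0.37), GPP2 (-0.49 to 0.18) and DAK1 (-0.54 to 0.92). The strain difference in the GPP1 share was -6.58 to 2.02 points and its difference between temperatures -12.1 to 5.12. Among linked genes called in the main comparison, SCT1, PTP2 and CAT8 with heat in Z100 were -0.013, -0.089 and -0.026 with library size only. With limma on FPKM they were -0.016, -0.083 and -0.021. Osmotic targets higher at 30 °C were 13 of 16 with the compared groups alone, where 52.8% of all genes were called in either direction.

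The replicate numbers were not taken to pair the libraries, since the deviations of same-numbered libraries correlated at -0.221, -0.17 and 0.161 between temperatures in Z100, at 0.157 between temperatures in XH7 and at -0.133 and -0.193 between strains at 30 °C. Between the heated strains the same numbers correlated at 0.732 and 0.619, a hint from the data and not from the labels; with 2 libraries a group in XH7 each value has a mirror of opposite sign. With the number as a block, FPS1 at 30 °C lost its call (adjusted p = 0.0686, edgeR), GPP2 at 30 °C was -0.058 and the GPD2 difference of responses -0.023, and the counts of calls were 9 and 8 with heat in XH7 and Z100, 3 at 30 °C, 0 at 50 °C and 0 for the difference.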
